A study of Mus musculus with 6 samples.

Results

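The CXC chemokine genes described here are the 10 genes Cxcl1, Cxcl2, Cxcl9, Cxcl10, Cxcl11, Cxcl12, Cxcl13, Cxcl14, Cxcl16 and Pf4, chosen by their symbol among the 24479 genes measured in liver sinusoidal endothelial cells (LSECs), the fenestrated endothelium of the hepatic sinusoids. Of these, 3 stood apart between the groups at an unadjusted p under 0.05, as did 11.2% of all genes. Cxcl10 was 2.04-fold and Cxcl1 1.52-fold higher on the arrays labelled Lyve-1-KO, and Pf4 was 1.37-fold higher in the Ctrl arrays. None of the 10 passed after adjustment over all genes.

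The study compared LSECs of mice with a constitutive knockout of Lyve1, a hyaluronan receptor of sinusoidal and lymphatic endothelium, with LSECs of Ctrl mice. The knockout mice were B6.129S1-Lyve1tm1Lhua/J on a C57BL/6 background and the Ctrl mice C57BL/6J, and neither group received a treatment or tumor. Livers of both groups were perfused and digested with collagenase, and CD146-positive cells were sorted with magnetic beads after a Nycodenz gradient. Each of the 3 arrays per group held RNA pooled from 3 mice. The methods allow for Ctrl mice that were littermates or were bought, and for bought mice the origin and the genotype cannot be told apart. The methods give an age range for the mice of the study as a whole, and neither age nor sex is stated for the mice on these arrays. In a constitutive knockout every cell type lacks the gene, and in bulk samples fewer cells of a type and less RNA per cell cannot be told apart.

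The arrays were checked against their labels first. Lyve1 read 12.85, 12.88 and 12.83 on the arrays labelled Lyve-1-KO and 12.78, 12.69 and 12.84 on the Ctrl arrays, all on the log2 scale of the deposited values. Lyve1 did not read lower under the knockout label (log2 fold change 0.08, SE 0.06, adjusted p = 0.663 in limma). Which part of the transcript the probes cover is not given in the sources used here, so the labels could not be checked with this gene. The mean of 10 LSEC markers, among them Clec4g and Oit3, lay between 13.01 and 13.05 on all 6 arrays. The extraction note in the labels names retina. Of 5 retina genes measured, 4 lay at the level of odorant, vomeronasal and taste receptor genes, which liver endothelium is not expected to express and which served as the background reference (95th percentile of their mean levels 4.37). All 10 CXC chemokine genes had a mean level above that reference.

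CXC chemokines are small secreted proteins that steer leukocytes through G protein-coupled receptors. Those with a glutamate-leucine-arginine motif before the first cysteines, such as Cxcl1 and Cxcl2, attract neutrophils through Cxcr2. Cxcl9, Cxcl10 and Cxcl11 are induced by interferons and attract T and NK cells through Cxcr3. In the liver, sinusoidal endothelium binds chemokines on its heparan sulfate and shows them to leukocytes that pass at low flow.

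Of the 10 genes, 7 lie on mouse chromosome 5. Cxcl12 lies on chromosome 6, Cxcl16 on 11 and Cxcl14 on 13, while the Lyve1 gene is on chromosome 7. In the RefSeq annotation Pf4, Cxcl3, Cxcl15, Cxcl1 and Cxcl2 follow each other, with Ppbp and Cxcl5 on the other side of Pf4, and Cxcl9 is parted from Cxcl10 by Art3 alone. The reference table holds promoters for 8 of the 10 genes (RefSeq, GRCm38.p6). Those of the neutrophil-attracting Cxcl1 and Cxcl2 and of the interferon-inducible Cxcl9 and Cxcl10 are shown because these genes are the textbook targets of NF-kB and of interferon signaling. Each line gives the 250 bases before the annotated start site, 5′ to 3′ on the strand of the gene. Capitals mark matches to GGANTTNCC, an NF-kB-like motif, and to GAAANNGAA, like an interferon-stimulated response element (ISRE-like). The windows are chr5:90890995-90891244 for Cxcl1 and chr5:90903649-90903898 for Cxcl2, both on the plus strand, and chr5:92328080-92328329 for Cxcl9 and chr5:92348890-92349139 for Cxcl10, both on the minus strand.
Cxcl1: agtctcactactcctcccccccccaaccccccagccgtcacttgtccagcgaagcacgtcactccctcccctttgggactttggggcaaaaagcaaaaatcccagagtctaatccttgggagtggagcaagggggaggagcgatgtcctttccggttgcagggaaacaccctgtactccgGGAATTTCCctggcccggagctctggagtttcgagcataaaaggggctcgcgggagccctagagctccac
Cxcl2: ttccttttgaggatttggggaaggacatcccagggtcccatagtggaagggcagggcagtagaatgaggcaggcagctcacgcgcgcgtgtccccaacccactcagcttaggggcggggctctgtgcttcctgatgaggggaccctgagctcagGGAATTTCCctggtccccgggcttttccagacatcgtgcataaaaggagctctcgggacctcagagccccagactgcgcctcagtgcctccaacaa
Cxcl9: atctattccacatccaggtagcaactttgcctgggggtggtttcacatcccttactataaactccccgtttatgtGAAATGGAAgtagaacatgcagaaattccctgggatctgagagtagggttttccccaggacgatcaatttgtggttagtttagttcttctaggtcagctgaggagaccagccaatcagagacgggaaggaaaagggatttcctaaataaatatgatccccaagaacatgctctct
Cxcl10: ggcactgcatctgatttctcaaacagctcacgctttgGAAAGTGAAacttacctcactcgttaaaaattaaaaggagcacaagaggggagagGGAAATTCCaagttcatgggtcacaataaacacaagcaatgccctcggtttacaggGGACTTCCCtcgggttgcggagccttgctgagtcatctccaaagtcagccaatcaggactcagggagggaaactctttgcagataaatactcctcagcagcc

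The promoters of Cxcl1 and Cxcl2 held the same NF-kB-like match, GGAATTTCC, at -70 to -62 and at -96 to -88, counted so that -1 is the base before the start site. Cxcl10 held GGACTTCCC at -102 to -94, a second NF-kB-like match that reads GGAAATTCC on the gene's strand and fits the motif on the opposite strand (-158 to -150), and the ISRE-like GAAAGTGAA at -213 to -205. Cxcl9 held the ISRE-like GAAATGGAA at -175 to -167. Both strands were searched over 250 bases before and 50 after the start site. The NF-kB-like motif occurs in 3.95% of 32851 mouse promoters of that length, the ISRE-like motif in 8.56%, and TTCNNNGAA, a GAS-like motif, in 8.3%. Cxcl14 held an ISRE-like match (GAAACAGAA) and a GAS-like match (TTCTGAGAA) that do not overlap. The windows of Cxcl12, Cxcl13 and Pf4 held none of these letters. A match describes the letters and is not a binding site.

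**Figure D1:**
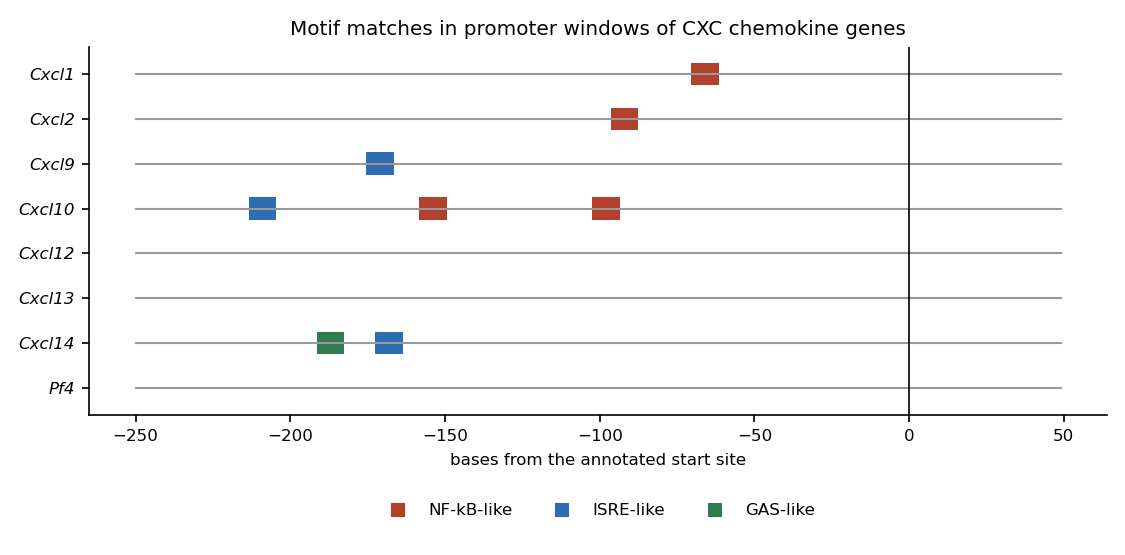
Matches to 3 short motifs in the promoter windows of 8 CXC chemokine genes; the horizontal axis gives bases from the annotated start site and each colored box is a match on either strand. Cxcl1 and Cxcl2 hold 1 NF-kB-like match each, Cxcl10 holds 2 and an ISRE-like match, and Cxcl12, Cxcl13 and Pf4 hold none.

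Across the 10 genes, 6 had a higher mean on the arrays labelled Lyve-1-KO and 4 a lower mean, and the median log2 fold change was 0.19, against -0.00 over all genes. All fold changes are the mean of the arrays labelled Lyve-1-KO minus the mean of the Ctrl arrays. None of the 10 passed an adjusted p of 0.05 in limma, as did 0.00409% of all genes (1 of 24479). At an unadjusted p under 0.05 in limma, Cxcl1 and Cxcl10 were higher and Pf4 was lower, and the methods' test, a per-gene comparison named in the study's methods, called the same 3 genes at that level and none after adjustment. Over all genes 5.87% were higher at that level and 5.33% were lower. The values of the groups did not overlap for the same 3 genes, 2 of them higher and 1 lower, while 8.71% of all genes were higher without overlap and 8.73% lower. With 3 arrays against 3, an exact two-sided permutation test of a single gene gives 0.1 at the smallest, which is the value of these 3 genes.

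**Figure D2:**
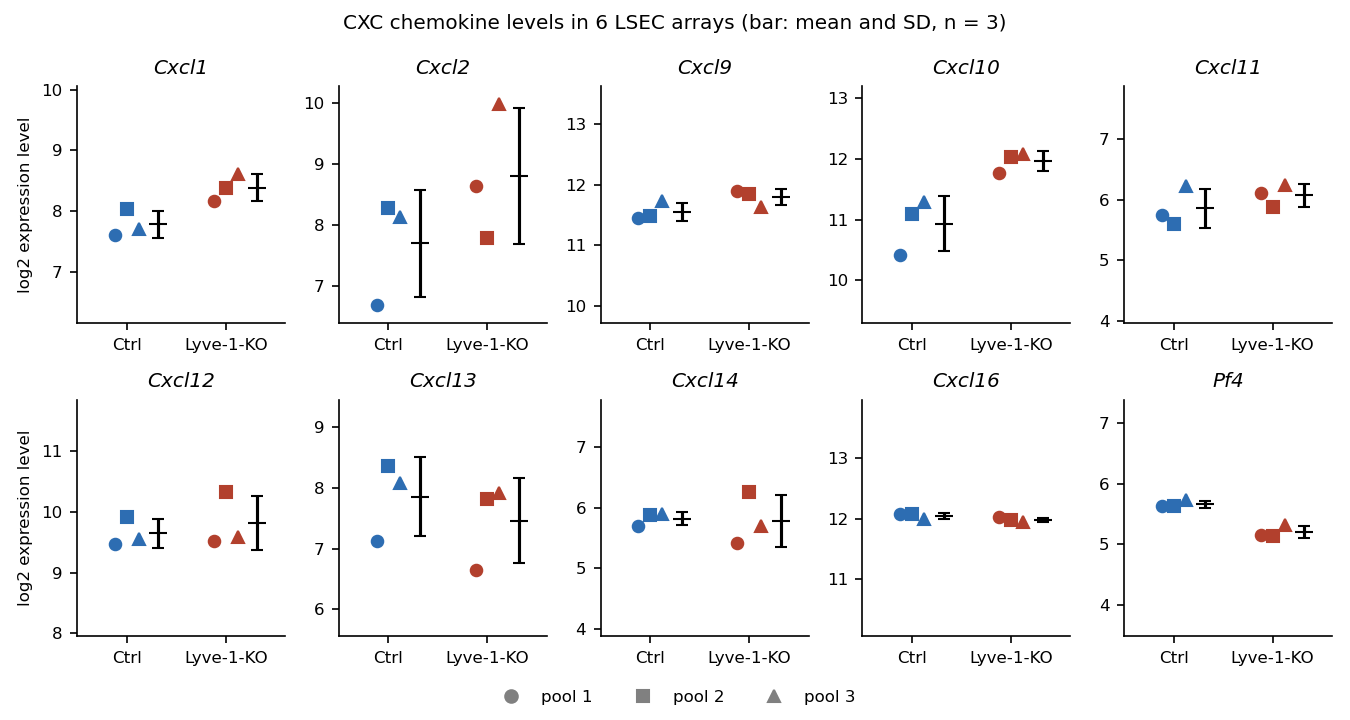
Log2 expression levels of the 10 CXC chemokine genes; each symbol is 1 array (circle, square and triangle for pools 1, 2 and 3), blue for Ctrl and red for arrays labelled Lyve-1-KO, with the mean and SD of 3 arrays in black. All vertical axes span the same number of log2 units but start at different levels. The groups do not overlap for Cxcl1, Cxcl10 and Pf4, and the arrays of Cxcl2 span from 6.68 to 9.99.

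Among the neutrophil-attracting chemokines, Cxcl1 (Entrez gene 14825) was higher on each array labelled Lyve-1-KO than on each Ctrl array. Its log2 levels were 8.17, 8.38 and 8.61 on the arrays labelled Lyve-1-KO and 7.61, 8.03 and 7.71 on the Ctrl arrays. The lowest value of the former lay 0.15 above the highest of the latter. The means were 8.39 ± 0.22 and 7.78 ± 0.22 (SD, n = 3), a log2 fold change of 0.60 (SE 0.15, 95% interval 0.26 to 0.95), that is 1.52-fold (1.19 to 1.93). The limma p was 0.00459 before and 0.263 after adjustment.

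Cxcl2, which shares Cxcr2 with Cxcl1, had the larger mean difference and no separation of the groups. Its log2 levels were 8.64, 7.78 and 9.99 on the arrays labelled Lyve-1-KO and 6.68, 8.27 and 8.13 on the Ctrl arrays. Array 3 of the former group was highest, array 1 of the Ctrl group lowest, and the remaining 4 arrays were mixed. The log2 fold change of 1.11 (SE 0.63) had a 95% interval from -0.39 to 2.60 (adjusted p = 0.558), which leaves room for a wide range of differences. Without array 3 labelled Lyve-1-KO the difference was 0.52, and without Ctrl array 1 it was 0.60. Without array 2 labelled Lyve-1-KO it was 1.62, with an unadjusted p of 0.0351.

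Neutrophil markers followed the same order over most arrays. The mean log2 level of 7 neutrophil markers was 6.02, 5.30 and 6.96 on the arrays labelled Lyve-1-KO and 5.14, 5.39 and 5.62 on the Ctrl arrays. The highest and the lowest array were those of Cxcl2. All 7 markers had a higher mean on the arrays labelled Lyve-1-KO, with a median log2 fold change of 0.77, and none reached an unadjusted p of 0.05. S100a9, a calcium-binding protein of neutrophils, read 7.88, 6.37 and 9.64 against 6.22, 6.54 and 7.17, and its partner S100a8 read 6.98, 5.94 and 8.80 against 5.87, 5.86 and 6.32. Ly6g and Elane, a surface marker and a granule protease of neutrophils, did not exceed the background reference. Cxcr2 itself read 7.25, 6.34 and 8.46 against 6.29, 6.42 and 6.40, a log2 fold change of 0.98 (SE 0.47, 95% interval -0.14 to 2.10) that was 0.43 without array 3. Without array 2 labelled Lyve-1-KO it was 1.48, with an unadjusted p of 0.00436. The part of neutrophils in the Cxcl2 and Cxcr2 values was not tested.

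Of the interferon-inducible ligands of Cxcr3, Cxcl10 (Entrez gene 15945) differed most. Its log2 levels were 11.77, 12.03 and 12.08 on the arrays labelled Lyve-1-KO and 10.42, 11.09 and 11.29 on the Ctrl arrays. All 3 of the former lay above all 3 of the latter with a gap of 0.49, and Ctrl array 1 was the lowest. The means were 11.96 ± 0.16 and 10.93 ± 0.46 (SD, n = 3), which gives a log2 fold change of 1.03 (SE 0.22, 95% interval 0.50 to 1.55), or 2.04-fold (1.42 to 2.93). The limma p was 0.00247 and the adjusted p 0.232. Without Ctrl array 1 the log2 fold change was 0.77 and its adjusted p in limma 0.243.

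Cxcl9, close to Cxcl10 on the chromosome and induced mainly by interferon-γ, differed less and overlapped. It read 11.89, 11.85 and 11.64 on the arrays labelled Lyve-1-KO against 11.46, 11.48 and 11.73, so that arrays 1 and 2 of the former lay above every Ctrl array and array 3 did not. The log2 fold change was 0.24 (SE 0.10, 95% interval -0.01 to 0.48, adjusted p = 0.459). Cxcl11 read 6.11, 5.87 and 6.24 against 5.75, 5.60 and 6.22, with a log2 fold change of 0.21 (SE 0.17, 95% interval -0.20 to 0.63, adjusted p = 0.686). In Cxcl11 array 3 was the highest of each group. C57BL/6 mice carry a frameshift in this gene and make no full-length Cxcl11 protein. Cxcr3, the receptor of these ligands on T and NK cells, had a log2 fold change of 0.04.

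Cells that respond to Cxcr3 ligands were looked for by their markers. The mean of 9 T and NK cell markers was 6.21, 5.61 and 6.01 on the arrays labelled Lyve-1-KO and 5.37, 5.64 and 6.07 on the Ctrl arrays, which overlap (exact permutation p = 0.5), and Cd3d and Cd8a did not exceed the background reference. Of the 9 markers 7 had a higher mean on the arrays labelled Lyve-1-KO and 2 a lower mean. At an unadjusted limma p under 0.05, 0 were higher and 1 was lower, beside 5.87% and 5.33% of all genes. Without overlap 1 was lower, beside 8.73% of all genes. Dendritic cells are a further source of these chemokines. The mean of 8 dendritic cell and monocyte markers was 6.14, 5.98 and 6.10 against 5.82, 6.11 and 6.27. Of these 8 genes 3 had a higher mean on the arrays labelled Lyve-1-KO and 5 a lower mean, with a median log2 fold change of -0.05. Only Clec9a, a receptor of cross-presenting dendritic cells, reached an unadjusted p of 0.05, a level at which 5.87% of all genes were higher. It read 8.78, 8.35 and 8.73 against 8.01, 8.05 and 7.80 (log2 fold change 0.67, SE 0.13, adjusted p = 0.209). Zbtb46 and Ccr2 differed by -0.04 and -0.23, and Flt3 and Xcr1 did not exceed the background reference. The part of dendritic cells in the chemokine values was not tested.

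Known regulators of such promoters and transcripts were followed by lists, which were chosen with earlier results of these data known. Of 16 measured genes of the NF-kB pathway, 6 were higher at an unadjusted limma p under 0.05 and 0 were lower. Over all genes 5.87% were higher at that level and 5.33% lower. The 16 genes had a median log2 fold change of 0.11, 12 with a higher and 4 with a lower mean, and none passed after adjustment. Nfkbia, the inhibitor that holds NF-kB in the cytoplasm, differed by 0.30 (SE 0.07). Rel, a subunit of NF-kB, differed by 0.51 (SE 0.14). Nfkbiz, a nuclear co-regulator, differed by 1.00 (SE 0.29), and Tnip1, a partner of the NF-kB inhibitor A20, by 0.17 (SE 0.06). These 4 genes had the smallest p of the list, and their groups did not overlap, while 8.71% of all genes were higher without overlap. Without array 2 or array 3 labelled Lyve-1-KO, 3 genes of the list were higher at that level.

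Of 14 genes of interferon signaling, 3 were higher at an unadjusted limma p under 0.05 and 0 were lower, beside 5.87% and 5.33% of all genes. The list had a median of 0.07 and none passed after adjustment. The 3 were Irf9 (0.32, SE 0.06) and Stat2 (0.24, SE 0.09), components of the factor that binds ISREs, and Irf1 (0.57, SE 0.15), a transcription factor induced by interferon-γ. Irf9 read 9.94, 9.93 and 9.96 on the arrays labelled Lyve-1-KO against 9.60, 9.68 and 9.62. The spread within each group was thus small beside the gap between them. The 11 remaining genes of the list include Socs1, a feedback inhibitor of the pathway, which differed by 0.21 and overlapped. Of all 14 genes, 9 had a higher mean on the arrays labelled Lyve-1-KO and 5 a lower mean. Without overlap 3 were higher and 1 was lower, beside 8.71% and 8.73% of all genes.

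Transcripts of Cxcl1 and Cxcl2 carry AU-rich elements and are short-lived. Of 7 genes for decay of AU-rich and other inflammatory mRNA, 3 were higher at an unadjusted limma p under 0.05 and 0 were lower. Over all genes it was 5.87% and 5.33%. The 7 genes had a median of 0.12, 4 with a higher and 3 with a lower mean, and none passed after adjustment. Zc3h12a, an RNase that degrades inflammatory transcripts, read 7.96, 7.69 and 7.99 against 7.22, 7.31 and 7.23 (log2 fold change 0.62, SE 0.09, adjusted p = 0.148). Zfp36, which binds AU-rich elements and speeds decay, differed by 0.39 (SE 0.15) with overlap, and its relative Zfp36l2 by 0.27 (SE 0.09) without. Without array 3 labelled Lyve-1-KO 1 gene of the list was higher at that level.

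Immediate early and heat shock genes, which are known to be induced while tissue is digested, moved with Cxcl10 over the arrays. Of 12 such genes, 11 were higher at an unadjusted limma p under 0.05 and 0 were lower, beside 5.87% and 5.33% of all genes. None of the 12 passed after adjustment. Their median log2 fold change was 0.40. Their mean log2 level was 12.04, 12.20 and 12.35 on the arrays labelled Lyve-1-KO and 11.42, 11.80 and 11.94 on the Ctrl arrays. In both groups the order of the arrays was that of Cxcl10, with Ctrl array 1 lowest. Nr4a1, an orphan nuclear receptor of this class, read 10.58, 10.83 and 11.10 against 9.30, 10.19 and 10.27. Egr1 and Jund, transcription factors of the same class, differed by 0.62 and 0.40, and Hspa1b, an inducible heat shock protein, by 0.25. Without array 3 labelled Lyve-1-KO 5 of the 12 genes were higher at that level, without array 2 it was 7, and without Ctrl array 1 it was 8 with a median of 0.29. The part of these genes' induction in the values of Cxcl1 and Cxcl10 was not tested.

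**Figure D3:**
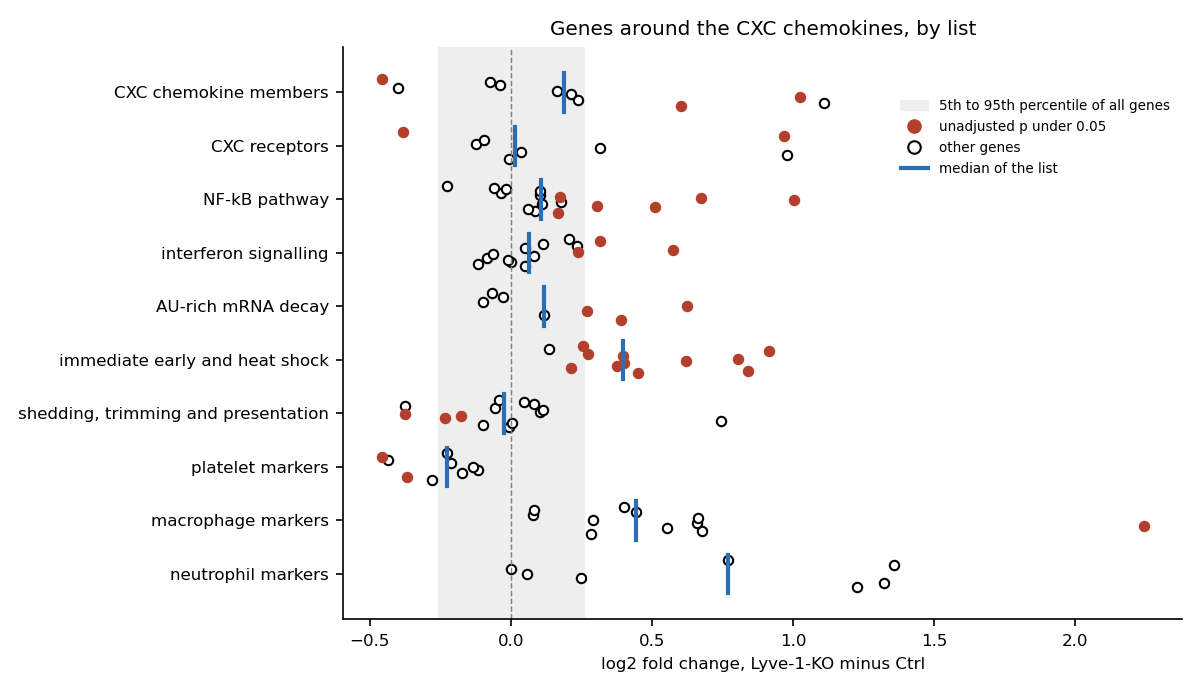
Log2 fold changes (arrays labelled Lyve-1-KO minus Ctrl, horizontal axis) of the 10 CXC chemokines, their receptors, 5 lists of related genes and 3 lists of cell type markers. Each circle is a gene, filled in red at an unadjusted p under 0.05 in limma, blue bars are medians and the grey band spans the 5th to the 95th percentile of all genes. The immediate early and heat shock list has its median at 0.40 with 11 of 12 genes filled.

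By the root mean square difference of mean-centred profiles over the 6 arrays, the genes most like Cxcl1 among 23269 genes were Eid3 (0.044), Map3k8 (0.0614) and Snx20 (0.0818), where the profile of Cxcl1 spans 1.0 log2 units. Those most like Cxcl10 were Nr4a1 (0.111), Ppp1r10 (0.112) and Nfkbiz (0.125), with a span of 1.66. Those most like Pf4 were Brms1 (0.0362), C1qtnf6 (0.0499) and Ehd4 (0.0612), with a span of 0.58. The points of each profile share their arrays, and likeness over 6 arrays is a description.

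Pf4 (Entrez gene 56744), or Cxcl4, a heparin-binding chemokine stored in platelet granules, was lower on each array labelled Lyve-1-KO than on each Ctrl array. Its log2 levels were 5.15, 5.14 and 5.32 on the arrays labelled Lyve-1-KO and 5.63, 5.63 and 5.73 on the Ctrl arrays, with a gap of 0.31 between the groups. The means were 5.20 ± 0.10 and 5.66 ± 0.06 (SD, n = 3). The log2 fold change was -0.46 (SE 0.07, 95% interval -0.63 to -0.28), which is 1.37-fold higher in Ctrl (1.22 to 1.55). Its limma p of 4.8e-04 was the smallest of the 10 genes and its adjusted p was 0.168. The difference between pools of the same number was -0.48, -0.48 and -0.41.

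Platelet markers were lower as well in part. All 9 measured had a lower mean on the arrays labelled Lyve-1-KO, with a median log2 fold change of -0.22. Of them 2 reached an unadjusted p of 0.05, a level at which 5.33% of all genes were lower. The mean level of the markers was 5.66, 5.72 and 5.68 on those arrays and 5.72, 6.09 and 6.07 on the Ctrl arrays, where array 1 lay near the former and arrays 2 and 3 above them. Itgb3, the β3 integrin of platelets that endothelium also expresses, read 8.56, 8.84 and 8.76 against 9.26, 8.97 and 9.30, and Gp9, a subunit of the von Willebrand factor receptor, 6.60, 6.64 and 6.81 against 6.78, 7.21 and 7.17. Ppbp, the CXC chemokine next to Pf4 and likewise stored in platelets, read 7.05, 7.22 and 6.83 against 7.12, 7.94 and 7.36 (log2 fold change -0.44, SE 0.21, adjusted p = 0.497), and Itga2b differed by -0.28. On Ctrl array 1 Pf4 lay above the arrays labelled Lyve-1-KO, and the marker mean did not. Without Ctrl array 1, 8 of the 9 markers were lower at that level, and with the replicate block 4 were. Without Ctrl array 2 or 3, or without array 1 or 2 labelled Lyve-1-KO, 1 marker was. The part of platelets in the Pf4 value was not tested.

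The chemokines that maintain resident cells overlapped between the groups. Cxcl12, which retains hematopoietic cells through Cxcr4, read 9.52, 10.33 and 9.59 on the arrays labelled Lyve-1-KO and 9.47, 9.92 and 9.56 on the Ctrl arrays, and array 2 was the highest of each group. Its log2 fold change was 0.16 (SE 0.23, 95% interval -0.38 to 0.71, adjusted p = 0.833) and turned to -0.09 without array 2 labelled Lyve-1-KO. Hepatic stellate cells also make Cxcl12. The mean of 10 stellate cell and fibroblast markers was 8.06, 8.73 and 8.15 against 8.06, 8.53 and 8.16, likewise highest on array 2 of each group, and for Lrat, which esterifies retinol in stellate cells, array 2 read 10.19 and 9.73. The part of stellate cells in the spread of Cxcl12 was not tested.

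Cxcl13, which gathers B cells through Cxcr5, read 6.65, 7.81 and 7.91 on the arrays labelled Lyve-1-KO and 7.13, 8.36 and 8.08 on the Ctrl arrays. Array 1 was the lowest of each group. The log2 fold change was -0.40 (SE 0.42, 95% interval -1.40 to 0.60, adjusted p = 0.766). Between pools of the same number it was -0.48, -0.55 and -0.18, and with the replicate number as a block the unadjusted p was 0.00811 (adjusted p = 0.308). Without array 1 labelled Lyve-1-KO the difference was 0.00. Macrophages are among the sources of Cxcl13, and the mean of 11 macrophage markers read 8.77, 9.53 and 9.83 against 7.61, 9.74 and 9.04, also lowest on array 1 of each group. All 11 had a higher mean on the arrays labelled Lyve-1-KO, opposite to Cxcl13. Of these Marco, a scavenger receptor of macrophages, was higher at an unadjusted p under 0.05 (log2 fold change 2.24, adjusted p = 0.355), and was named after its value was seen. Over all genes 5.87% were higher at that level. The means of 4 B cell markers were 6.11, 5.62 and 5.24 against 5.79, 6.60 and 6.51. All 4 had a lower mean on the arrays labelled Lyve-1-KO, the direction of Cxcl13, with a median log2 fold change of -0.61. From array 1 to array 3 labelled Lyve-1-KO, however, the marker mean fell while Cxcl13 rose. On the Ctrl arrays both were lowest on array 1 and highest on array 2. Ms4a1 (-0.94) and Pax5 (-0.57), a surface protein and a transcription factor of B cells, were under an unadjusted limma p of 0.05 with overlap. At that level 5.33% of all genes were lower. The part of either cell type in Cxcl13 was not tested.

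Cxcl14, a chemokine expressed in many epithelia, read 5.41, 6.25 and 5.69 against 5.69, 5.88 and 5.89. Its log2 fold change was -0.04 (SE 0.20), and the 95% interval from -0.52 to 0.44 leaves room for a difference as large as that of Pf4. Cxcl16, which is made as a membrane protein, shed by Adam10 and sensed by Cxcr6 on NKT cells, was the steadiest of the 10. It read 12.02, 11.97 and 11.94 on the arrays labelled Lyve-1-KO and 12.07, 12.08 and 11.99 on the Ctrl arrays. The log2 fold change of -0.07 (SE 0.06, adjusted p = 0.696) had a 95% interval from -0.22 to 0.07. Adam10, its sheddase, differed by -0.01, and Dpp4, a peptidase that trims Cxcl9, Cxcl10, Cxcl11 and Cxcl12, by 0.00. Both enzymes were named after their values were seen.

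The 10 genes spread widely between arrays of the same group. By the SD within groups, 6 of them lay in the top 10% of all genes, and their median percentile was 93.6. Cxcl2 lay at the 99.9th percentile with an SD of 1.0, Cxcl13 at 99.3, Cxcl12 at 96.4, Cxcl10 at 95.9, Cxcl14 at 94.9 and Cxcl11 at 92.2. Cxcl16 was at 8.41 and Pf4 at 32. The 3 genes whose groups did not overlap were thus found among both the steady and the variable ones.

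**Figure D4:**
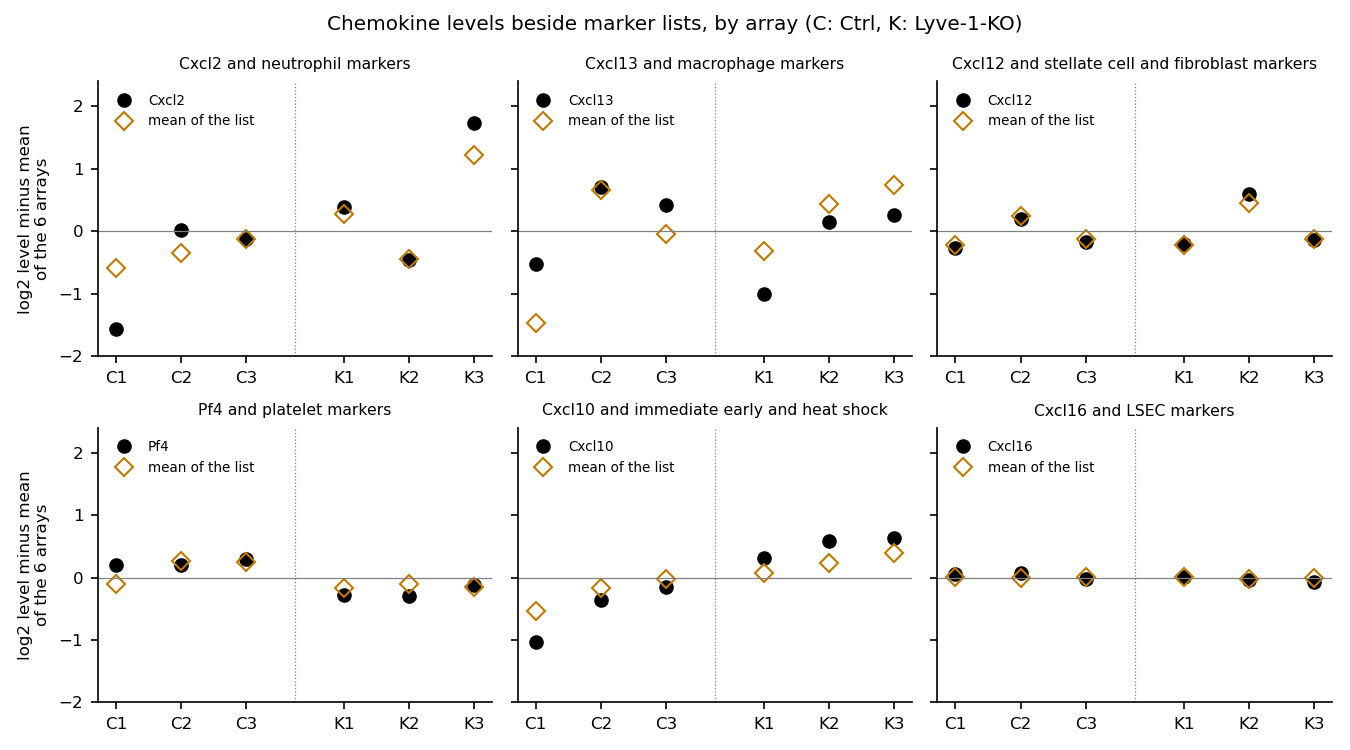
Log2 levels of 6 CXC chemokine genes (black) and the mean of a marker list (open diamonds) on each array, both with their mean over the 6 arrays subtracted; C1 to C3 are Ctrl arrays and K1 to K3 arrays labelled Lyve-1-KO. Cxcl2 and the neutrophil markers are highest on K3 and lowest on C1, Cxcl12 and the stellate cell markers highest on C2 and K2 within their groups, and Cxcl16 and the LSEC markers stay near 0.

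The 5 remaining CXC chemokines of the array reached no unadjusted p of 0.05. With the replicate block Ppbp (p of 0.0238) and Cxcl5 (p of 0.0467) did, and without Ctrl array 1 Ppbp (p of 0.0211) and Cxcl15 (p of 0.0418) did, all of them lower on the arrays labelled Lyve-1-KO. Cxcl3 and Cxcl5, further ligands of Cxcr2, and Cxcl15 did not exceed the background reference. Cxcl3 differed by 0.23 and Cxcl17 by -0.07. For Cxcl5 (3.63, 3.72 and 3.57 against 3.81, 3.89 and 3.73) and Cxcl15 (3.40, 3.47 and 3.48 against 3.49, 3.65 and 3.60) the groups did not overlap, and both were lower on the arrays labelled Lyve-1-KO at a level where the array does not separate signal from background. Over all genes 8.73% were lower without overlap.

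Among 8 receptors of CXC chemokines, the smallest p was that of Ackr1, an atypical receptor of venular endothelium and red cells that binds Cxcl1 and other chemokines without G protein signaling. It read 9.66, 9.72 and 9.43 on the arrays labelled Lyve-1-KO and 8.51, 8.82 and 8.57 on the Ctrl arrays. The groups did not overlap. The log2 fold change was 0.97 (SE 0.11, 95% interval 0.70 to 1.23) with an adjusted p of 0.0901 in limma. The adjusted p became 0.0107 when limma's variance followed the level (trend and robust variance). It was 0.169 with the replicate block, 0.319 with the methods' test and 0.112 to 0.34 in limma with 1 array left out. Ackr3, a scavenger of Cxcl12 and Cxcl11, read 8.04, 8.27 and 8.36 against 8.70, 8.82 and 8.29, where the third Ctrl array lay among the former. It differed by -0.38 (SE 0.15, adjusted p = 0.428). The unadjusted limma p of 0.0414 became 0.0561 with the replicate block, and the methods' test gave an unadjusted p of 0.11. In limma Ackr3 was no longer under 0.05 without array 1 or 2 of either group, and stayed under it without array 3 of either group. Without Ctrl array 1 the receptors lower at that level were Cxcr5 (limma p of 0.0288) and Cxcr6 (limma p of 0.0453). Cxcr4 read 8.45, 8.02 and 8.72 against 7.61, 8.34 and 8.29 and differed by 0.31, which was 0.08 without Ctrl array 1 and 0.50 without array 2 labelled Lyve-1-KO. Cxcr1, Cxcr5 and Cxcr6 differed by -0.01, -0.12 and -0.10, and Cxcr6 did not exceed the background reference.

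**Figure D5:**
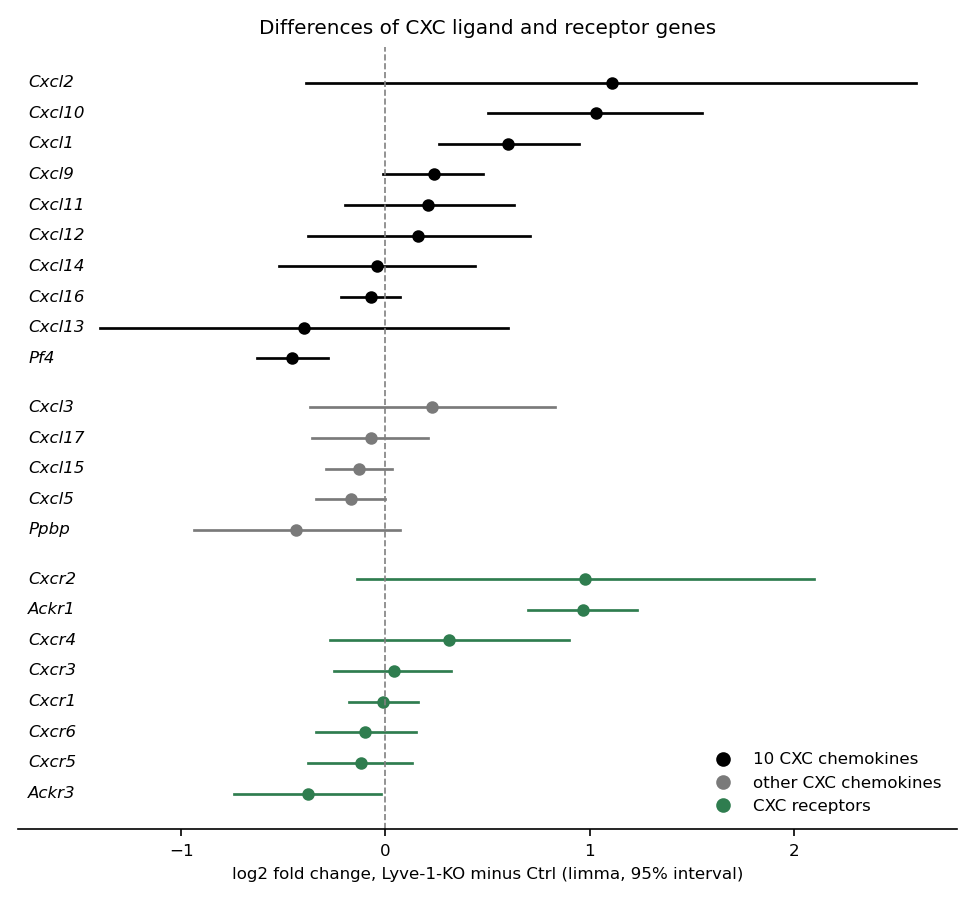
Log2 fold changes (arrays labelled Lyve-1-KO minus Ctrl, horizontal axis) with 95% intervals from limma for the 10 CXC chemokine genes (black), 5 other CXC chemokines (grey) and 8 receptors (green). The intervals of Cxcl10, Cxcl1, Pf4, Ackr1 and Ackr3 do not cross 0, and that of Cxcl2 reaches from -0.39 to 2.60.

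Chemokines are held on endothelium by heparan sulfate. Of 14 genes for shedding, trimming and presentation of chemokines, 3 were lower at an unadjusted limma p under 0.05 and 0 were higher, beside 5.33% and 5.87% of all genes. The list had a median of -0.03 and none passed after adjustment. The 3 were Ext1, Ext2 and Extl3, glycosyltransferases that start or extend heparan sulfate chains. Extl3 read 6.32, 6.47 and 6.48 on the arrays labelled Lyve-1-KO against 6.82, 6.91 and 6.66 (log2 fold change -0.38, SE 0.09), Ext1 8.99, 8.96 and 8.95 against 9.24, 9.13 and 9.22 (-0.23, SE 0.06), and Ext2 differed by -0.18 (SE 0.07). The groups did not overlap for any of them, while 8.73% of all genes were lower without overlap. Mmp9, a protease that cleaves CXC chemokines and is carried by neutrophils, read 7.09, 6.08 and 7.80 against 6.13, 6.25 and 6.36, with array 3 highest as in Cxcl2 and Cxcr2.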

How the data were processed

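Gene expression was measured on MoGene-2_0-st arrays, 1 for each of 3 Lyve-1-KO and 3 Ctrl pools. The authors grouped probes by Entrez gene with a custom CDF (version 18) and quantile-normalized the arrays, and the deposited values are log2 expression levels. The submitters' processing notes also name RMA (no version). Nothing was normalized again. Equal distributions on all arrays fix the median, so a shift of all genes cannot be seen, and the number of arrays limits the precision.

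All 24479 genes were tested by lmFit and eBayes of limma 3.58.1 (R 4.3.3, no filter) with Benjamini-Hochberg adjustment over all genes and a threshold of 0.05. Symbols come from the platform's probe annotation (23281 genes with 1 symbol). The fit was tested on simulated data of the same size. An exact permutation test (two-sided) served for single values. The members and gene lists were chosen with earlier results of these data known. Named were all members, every other CXC chemokine and receptor, up to 4 genes of smallest p in each pathway list, up to 4 of highest level in each marker list, the 3 genes most like a leading member, and, after their values were seen, Marco, Adam10 and Dpp4. Some markers that did not exceed the background reference were named as well.

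Pools carry the numbers 1 to 3 in both groups. Once group means were subtracted, equal numbers correlated at 0.206, 0.134 and 0.124 over all genes, and unequal numbers at -0.218 to 0.0432. The pairing was taken from this check on the same data, since neither labels nor methods state it. Deviations sum to 0 within a group, so higher values for equal numbers go with lower ones for unequal numbers. The block is thus a possible pairing only. The labels call the pools biological replicates, so p-values measure the spread between pools and not between single mice. Alternatives were the replicate block, centring, repeated quantile normalization, a filter at the 40th percentile of the mean level, trend and robust variance, array weights, the methods' test, and leaving out each array in turn. Where 2 arrays were left, the spread was shared by both groups in limma.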

Additional observations from a re-analysis of the deposited data

How the results depend on the processing

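Every difference of Cxcl1, Cxcl2, Cxcl9, Cxcl10, Cxcl11, Cxcl16 and Pf4 kept its direction under all alternatives run, and no CXC chemokine passed the adjusted threshold under any of them (lowest adjusted p 0.147 to 0.447 over the settings). Centring and repeated quantile normalization gave the values of the comparison as reported. With the replicate block, which pairs the pools by number, 2 of the 10 CXC chemokines were lower at an unadjusted p under 0.05 in place of 1, as Cxcl13 joined Pf4, Ppbp and Cxcl5 outside the 10 were lower at that level as well, 0 of all genes passed the adjusted threshold in place of 1 (2757 at an unadjusted p under 0.05), and Ackr3 was no longer under 0.05 unadjusted; the block changed no other call of the 10 genes. Array weights also brought Ppbp (p of 0.0482) and Cxcl5 (p of 0.0423) under that level, and so did trend and robust variance (p of 0.0494) and leaving out array 2 labelled Lyve-1-KO (p of 0.0398) or Ctrl array 3 (p of 0.0381) for Cxcl5. With trend and robust variance 49 genes passed, and Ackr1 was among them (0.97). With the methods' test 0 passed (2473 at an unadjusted p under 0.05). Leaving out each array in turn, 0 to 2 genes passed. CXC chemokines higher at an unadjusted limma p under 0.05 then numbered 2 to 4, beside 4.14% to 6.38% of all genes. Cxcl9 and Cxcl11 joined without Ctrl array 3, Cxcl9 without array 3 labelled Lyve-1-KO (p of 0.0249) and Cxcl2 without array 2 labelled Lyve-1-KO. Trend and robust variance on all arrays also brought Cxcl9 under that level (p of 0.0276). With 1 array left out, CXC chemokines whose groups did not overlap numbered 2 to 4 higher and 1 to 2 lower (Cxcl16 joined without array 1 labelled Lyve-1-KO or Ctrl array 3, Cxcl14 without array 2 labelled Lyve-1-KO and Cxcl13 without Ctrl array 1). At that size 12.2% to 15.8% of all genes were higher without overlap and 12.7% to 14.7% lower. Over the same omissions the difference ranged from -0.09 to 0.31 for Cxcl12, -0.76 to 0.00 for Cxcl13, -0.27 to 0.15 for Cxcl14, -0.04 to 0.39 for Cxcl3, -0.16 to 0.02 for Cxcl17, -0.06 to 0.03 for Cxcr1 and -0.07 to 0.10 for Cxcr3, so these 7 directions changed or vanished with 1 array left out. Cxcl14 was 0.01 without array 3 labelled Lyve-1-KO. The list counts under these settings were chosen after seeing the data. Nearness to background limits Cxcl3, Cxcl5, Cxcl15 and Cxcr6.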

Other observations

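Beyond the chemokines, Mmrn1 and Vwf stood apart among the lymphatic and the arterial and venous endothelial markers. Mmrn1, a multimerin of lymphatic endothelium and megakaryocytes, read 4.52, 5.02 and 4.65 on the arrays labelled Lyve-1-KO and 6.41, 6.16 and 6.66 on the Ctrl arrays (log2 fold change -1.68, SE 0.17, adjusted p = 0.0901 in limma). Vwf, the carrier of factor VIII in continuous endothelium and platelets, read 9.08, 8.77 and 9.04 against 10.88, 9.17 and 9.74 (-0.97, SE 0.40, adjusted p = 0.437). The difference in Vwf was -0.49 without Ctrl array 1, a value computed after seeing the data. Both were lower without overlap, as were 8.73% of all genes. Prox1, the transcription factor of lymphatic identity, overlapped (5.94, 6.20 and 6.03 against 6.34, 5.91 and 6.26). Pdpn (-0.01) and Reln (0.15), the remaining lymphatic markers, overlapped as well. Of the 7 arterial and venous markers 2 had a higher and 5 a lower mean, and Vwf alone did not overlap. Efnb2 and Sox17 differed by 0.17 and 0.11, and Selp by -0.51.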
